A study of Mus musculus with 2 samples.

Results

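White and brown adipocyte genes were followed in mouse heart RNA: 37 genes, listed by symbol as markers and metabolic genes of fat cells, out of 21368 genes named on the array. A probe belonged to a gene when its RefSeq accession did, and all 37 were found, 28 with 1 probe and 9 with 2. The 2 samples of heart RNA were each hybridised to 1 Agilent array of the 1-colour kind. The WRN-K577M heart (1 array) came from a transgenic line of C57BL6 background that carries WRN*K577M behind the CAG promoter, which is active in most cell types, so that expression of the transgene is not limited to heart muscle. The control heart (1 array) was of C57BL6 background without that transgene. WRN belongs to the RecQ DNA helicases, the altered residue lies in the helicase domain, and the question of the comparison is the signalling behind cardiac remodelling. The labels used here give neither age nor sex, nor whether hearts were pooled. Both sample titles carry the letters ND, whose meaning the labels do not give. Both arrays lay on 1 slide, and the share of probes well above background was 52.9% in the WRN-K577M heart and 55.2% in the control heart.

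A level is the log2 processed signal minus the log2 of the array's 75th percentile, and log2 ratios are differences of levels, WRN-K577M minus control. A gene is called measured when a probe was well above background on both arrays, by the scanner software's own flag. Of the 37 genes, 30 were measured, 3 (Plin1, Ucp1 and Acvr1c) were well above background in the control heart only and have a bound, and 4 (Lep, Elovl3, Orm1 and Lgals12) were not well above background in either heart. Just inside that limit was Nnat, with processed signals of 14.8 in the WRN-K577M heart and 12.5 in the control heart. Just outside it were Plin1 in the WRN-K577M heart, at 9.65, and Orm1 in the control heart, at 6.01. Levels of different genes come from different probes and are not compared with each other. With 1 array per group there is no replicate check and no p-value. Error within an array can be given: over 269 probes printed at 5 or more spots, the pooled SD of the log2 ratio between spots of a probe was 0.13. The error that the scanner software attaches to a ratio was 0.20 to 0.36 on the log2 scale for the 30 measured genes.

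Fat cells store triglyceride in lipid droplets coated with perilipin and CIDE proteins, and secrete hormones such as adiponectin, resistin and leptin. PPAR-gamma and C/EBP-alpha are the main transcription factors of their differentiation. Brown fat cells burn lipid for heat through the uncoupling protein UCP1. In mice, fat surrounds the heart and great vessels outside the muscle, and several enzymes of fat cells are also made by heart muscle, endothelium or liver.

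The WRN-K577M heart had lower transcript levels for several secreted and lipid droplet proteins typical of fat cells. Transcripts of a number of lipid enzymes and binding proteins differed little. Car3, Adipoq, Cidec, Pck1, Cfd and Retn were each more than 5-fold lower. Ucp1 was at least 11.3-fold lower and Plin1 at least 9.06-fold lower. Fabp4, Pparg, Cidea, Acly, Dgat1 and Dgat2 lay within 1.5-fold. Among the 30 measured genes, 11 were at least 2-fold lower, against a background of 3.46% of all 14003 measured genes, and 0 were at least 2-fold higher, against 1.94%. At least 4-fold lower were 6 of the 30, against 0.6% of all measured genes. With the bounds entered, 13 of 33 genes were at least 2-fold lower, against 4.16% of all measured and bounded genes, and 0 of 33 at least 2-fold higher, against 2.28%. The median log2 ratio was -0.62 over the 30 genes and 0.020 over all measured genes, and 23 of the 30 ratios were below 0, as were 47.6% of all. In bulk tissue, fewer cells of a type and less RNA per cell cannot be told apart.

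**Figure D1:**
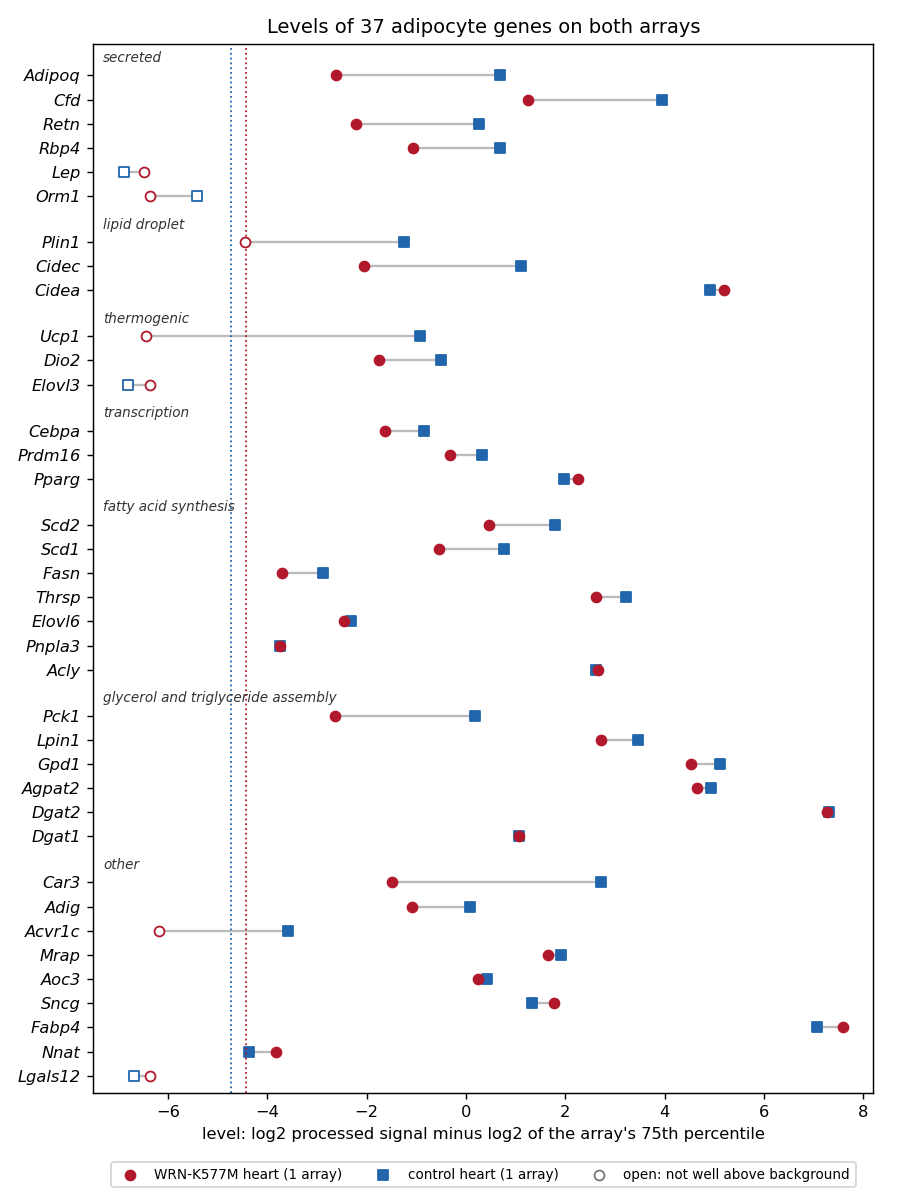
Level of each of the 37 genes (x axis, log2 processed signal minus the log2 of the array's 75th percentile) in the WRN-K577M heart (red circles) and the control heart (blue squares), grouped by role; open symbols are not well above background and dotted lines mark the lowest level that was, -4.42 on the WRN-K577M array and -4.73 on the control array. Adipoq, Cfd, Retn, Cidec, Pck1 and Car3 lie far to the left in the WRN-K577M heart, whereas Dgat1, Dgat2, Acly and Pnpla3 overlap.

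All 4 measured genes for secreted proteins were lower in the WRN-K577M heart, with a median log2 ratio of -2.60. Adipoq encodes adiponectin, the fat hormone that raises insulin sensitivity. Its level was -2.62 in the WRN-K577M heart and 0.68 in the control heart, a log2 ratio of -3.31 (9.89-fold lower), which ranked 11 from the lowest among the 14003 measured genes. Cfd encodes adipsin, the complement factor D that fat cells release, and had levels of 1.24 in the WRN-K577M heart and 3.95 in the control heart (-2.71, 6.52-fold lower). This was a bright probe, with processed signals of 496 in the WRN-K577M heart and 3951 in the control heart, both far above the local background. Retn encodes resistin, in mice a hormone of white fat. Its 2 probes gave levels of -2.22 and -2.60 in the WRN-K577M heart and 0.26 and 0.030 in the control heart, with log2 ratios of -2.49 and -2.63 that differed from each other by less than the software's error of 0.22 and 0.23. Rbp4, the plasma carrier of retinol, made in liver and fat, had levels of -1.07 in the WRN-K577M heart and 0.69 in the control heart (-1.77, 3.41-fold lower). Lep, which encodes leptin, was printed at 10 spots, of which 9 could be used, and none of those was well above background in either heart, with processed signals of 1.99 to 2.68 in the WRN-K577M heart and 1.93 to 2.42 in the control heart. Orm1, an acute-phase glycoprotein of liver and fat, was likewise not well above background in either heart.

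Of the 3 genes for droplet proteins, those typical of white fat were lower and Cidea was not. Cidec encodes the protein that fuses small droplets into large ones in white fat cells. Its brighter probe read -2.04 in the WRN-K577M heart and 1.12 in the control heart (-3.16, 8.95-fold lower), and its dimmer probe was well above background in the control heart only, at -5.05 in the WRN-K577M heart and -1.97 in the control heart. Plin1 encodes perilipin 1, the coat protein that gates lipolysis in fat cells. Its level was -4.44 in the WRN-K577M heart, not well above background, and -1.24 in the control heart, at least 9.06-fold lower. Cidea, a relative of Cidec best known from brown fat, had levels of 5.20 in the WRN-K577M heart and 4.91 in the control heart, a log2 ratio of 0.28 beside a software error of 0.20. Its processed signals were 7685 in the WRN-K577M heart and 7699 in the control heart, bright in both. Of these 2 members of 1 family, Cidec was thus lower, and Cidea lay within 1.5-fold with nearly equal processed signals.

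The windows of 250 bases before the RefSeq transcription start (assembly GRCm38.p6) are shown for the genes of the list that were at least 4-fold lower, as measured or as a bound, where RefSeq's promoter table holds them. These are 7 genes with 8 windows, Cidec having 2 listed starts, and Car3 is named only. Each is written 5′ to 3′ on the gene's strand and ends at the base before the start. Capitals mark exact matches to TATAAA on the gene's strand, to AGGTCA, the core site of nuclear receptors, on either strand, to a pair of AGGNCA with 1 base between them, the kind of site bound by PPAR-gamma with its partner RXR, on either strand, and to TTGCNNAA, a C/EBP-like element, on either strand. A pair overlaps AGGTCA where its N is T.
Adipoq (chr16:23146286-23146535, plus strand): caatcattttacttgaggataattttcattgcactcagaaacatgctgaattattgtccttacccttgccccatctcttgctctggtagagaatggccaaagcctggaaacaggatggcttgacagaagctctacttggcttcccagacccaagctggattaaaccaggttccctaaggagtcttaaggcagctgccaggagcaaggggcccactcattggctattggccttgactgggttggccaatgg
Cfd (chr10:79890603-79890852, plus strand): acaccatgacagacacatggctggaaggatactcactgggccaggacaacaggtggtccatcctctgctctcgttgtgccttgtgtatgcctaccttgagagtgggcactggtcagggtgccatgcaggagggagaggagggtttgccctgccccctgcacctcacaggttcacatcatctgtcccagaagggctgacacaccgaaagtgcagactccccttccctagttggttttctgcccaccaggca
Retn (chr8:3655520-3655769, plus strand): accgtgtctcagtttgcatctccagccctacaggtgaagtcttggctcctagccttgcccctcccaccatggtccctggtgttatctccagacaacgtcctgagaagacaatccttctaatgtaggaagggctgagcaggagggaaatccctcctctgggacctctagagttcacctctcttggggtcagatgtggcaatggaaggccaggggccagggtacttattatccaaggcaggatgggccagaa
Cidec, downstream start (chr6:113434765-113435014, minus strand): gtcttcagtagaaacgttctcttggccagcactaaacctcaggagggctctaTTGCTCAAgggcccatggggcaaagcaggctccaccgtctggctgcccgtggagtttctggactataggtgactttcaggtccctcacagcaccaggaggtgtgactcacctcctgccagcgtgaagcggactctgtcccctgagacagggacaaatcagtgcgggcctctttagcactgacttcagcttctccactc
Cidec, upstream start (chr6:113435761-113436010, minus strand): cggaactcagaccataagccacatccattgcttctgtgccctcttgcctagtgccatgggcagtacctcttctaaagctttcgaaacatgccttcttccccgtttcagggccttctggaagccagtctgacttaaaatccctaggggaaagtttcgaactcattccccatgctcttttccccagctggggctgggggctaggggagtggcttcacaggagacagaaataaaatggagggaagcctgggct
Plin1 (chr7:79732777-79733026, minus strand): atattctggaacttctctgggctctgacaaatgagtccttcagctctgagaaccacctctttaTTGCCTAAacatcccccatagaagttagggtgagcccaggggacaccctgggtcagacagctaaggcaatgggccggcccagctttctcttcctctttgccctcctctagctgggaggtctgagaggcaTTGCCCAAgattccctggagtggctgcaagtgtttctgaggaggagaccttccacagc
Ucp1 (chr8:83290098-83290347, plus strand): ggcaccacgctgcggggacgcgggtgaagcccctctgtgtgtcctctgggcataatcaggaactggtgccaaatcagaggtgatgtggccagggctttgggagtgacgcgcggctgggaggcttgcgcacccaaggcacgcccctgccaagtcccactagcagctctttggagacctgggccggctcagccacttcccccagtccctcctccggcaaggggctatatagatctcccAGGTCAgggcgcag
Pck1 (chr2:173152823-173153072, plus strand): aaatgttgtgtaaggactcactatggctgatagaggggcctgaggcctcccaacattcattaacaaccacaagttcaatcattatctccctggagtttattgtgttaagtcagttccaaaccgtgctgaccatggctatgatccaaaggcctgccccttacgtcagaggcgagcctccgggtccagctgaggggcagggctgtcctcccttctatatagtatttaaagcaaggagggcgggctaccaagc
TTGCNNAA was found in 2 of the 8 windows, 1 of Cidec and that of Plin1, where it occurs at 2 places, and in 9.56% of all 32851 windows in the table. AGGTCA was found in 1 of the 8, that of Ucp1, and in 14.0% of all windows. TATAAA was found in 0 of the 8 and in 7.59% of all, and the pair of AGGNCA in 0 of the 8 and in 0.338% of all. A match describes letters in a window and not a bound site, and the absence of a match says only that these letters are not there.

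Ucp1 and Dio2 of the thermogenic programme were lower, and the 3 transcription factors lay within 2-fold. Ucp1 read -6.44 in the WRN-K577M heart, not well above background, and -0.92 in the control heart, at least 11.3-fold lower. Its processed signals were 2.41 in the WRN-K577M heart and 136 in the control heart. Dio2, the deiodinase that activates thyroid hormone within brown fat, had levels of -1.74 in the WRN-K577M heart and -0.50 in the control heart (-1.25, 2.38-fold lower). Elovl3, a fatty acid elongase of brown fat and skin, was not well above background in either heart. Prdm16, which encodes a transcription factor of brown fat identity that also acts in heart development, had levels of -0.31 in the WRN-K577M heart and 0.32 in the control heart (-0.64). Cebpa, which encodes C/EBP-alpha, had levels of -1.62 in the WRN-K577M heart and -0.85 in the control heart (-0.77). Pparg was printed at 10 spots on each array. Its level was 2.26 ± 0.05 in the WRN-K577M heart and 1.97 ± 0.05 in the control heart (SD between 10 spots of 1 array, which is not a spread between animals), and the 10 spot ratios ran from 0.26 to 0.35. Its processed signals were 1005 in the WRN-K577M heart and 1003 in the control heart. The log2 ratio of 0.29, with a software error of 0.20, thus comes nearly all from the scaling between the arrays. The PPAR-gamma transcript lay within 1.5-fold in the heart in which Adipoq and Plin1 stood lower.

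**Figure D2:**
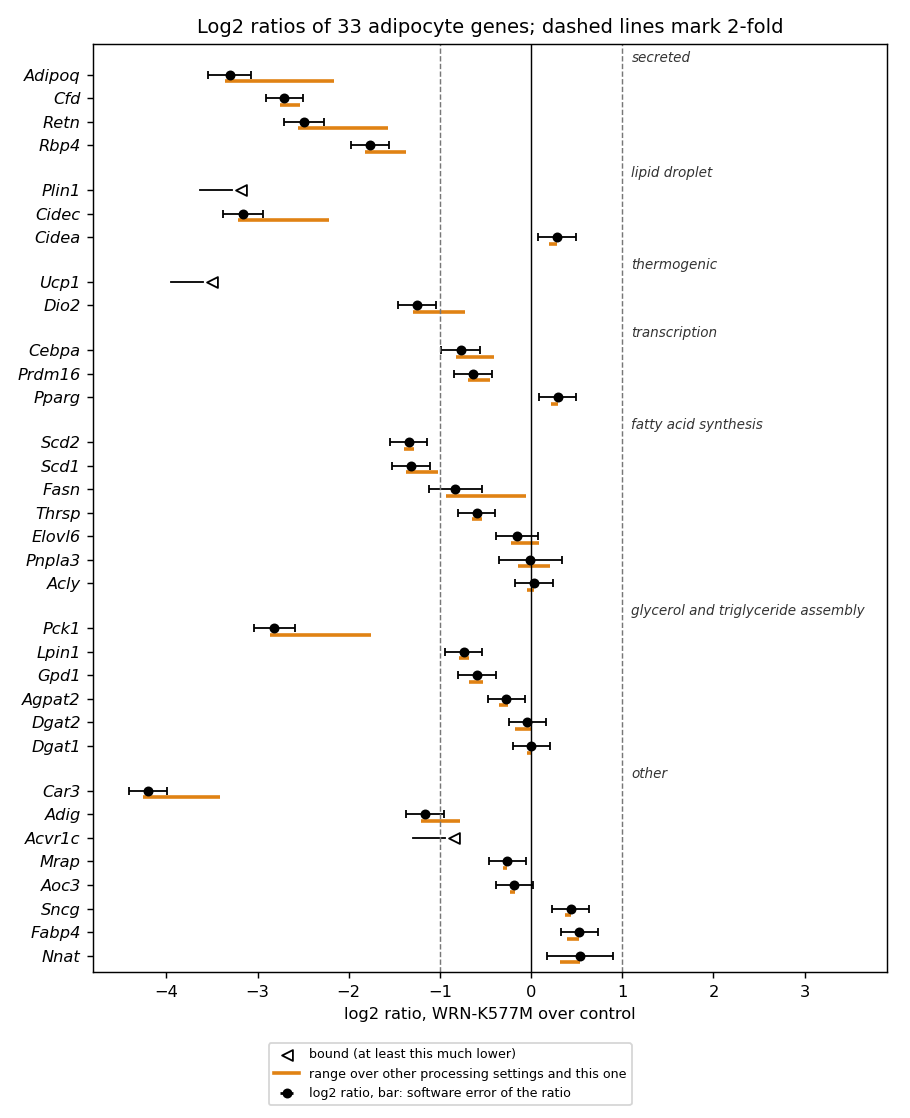
Log2 ratio, WRN-K577M over control, for the 33 genes with a measured ratio (black points, with the scanner software's error of the ratio) or a bound (open triangles with a line towards lower values), grouped by role; orange bars span the values under the processing settings compared and dashed lines mark 2-fold. Points run from -4.20 for Car3 to 0.53 for Nnat, and none lies above the upper 2-fold line.

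Among 7 genes of fatty acid synthesis, both stearoyl-CoA desaturases were lower and the other 5 lay within 2-fold. Scd1 and Scd2 introduce the double bond that makes oleate and palmitoleate. Scd1 had levels of -0.55 in the WRN-K577M heart and 0.77 in the control heart (-1.32, 2.49-fold lower). Scd2 had levels of 0.46 in the WRN-K577M heart and 1.80 in the control heart (-1.34, 2.54-fold lower). The desaturase ratios differed from each other by less than the software's error of either, 0.20. Fasn, fatty acid synthase, had levels of -3.70 in the WRN-K577M heart and -2.87 in the control heart (-0.83), close to background on both arrays, with a software error of 0.29. Thrsp, the lipogenic regulator also called Spot14, had levels of 2.62 in the WRN-K577M heart and 3.21 in the control heart (-0.59). Acly, the enzyme that supplies cytosolic acetyl-CoA, had levels of 2.66 in the WRN-K577M heart and 2.63 in the control heart (0.031), and its dimmer probe had a log2 ratio of -0.12. Elovl6, which lengthens palmitate, had levels of -2.46 in the WRN-K577M heart and -2.30 in the control heart. The probes of Pnpla3, a lipid droplet acyl hydrolase, differed: one gave -3.74 in the WRN-K577M heart and -3.73 in the control heart, and the other was well above background in the control heart only, at -5.07 in the WRN-K577M heart and -3.49 in the control heart.

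In triglyceride assembly, Pck1 was lower and the acyltransferases differed little. Pck1, cytosolic phosphoenolpyruvate carboxykinase, makes glycerol phosphate from pyruvate in fat and glucose in liver. Its levels were -2.64 in the WRN-K577M heart and 0.18 in the control heart (-2.81, 7.04-fold lower). Gpd1, which makes glycerol phosphate from a glycolytic intermediate, had levels of 4.53 in the WRN-K577M heart and 5.13 in the control heart (-0.59). Lpin1, the phosphatidate phosphatase of fat and muscle, read 2.72 in the WRN-K577M heart and 3.46 in the control heart by its brighter probe (-0.74), and its dimmer probe was well above background in the control heart only, at -5.04 in the WRN-K577M heart and -2.39 in the control heart. Agpat2, which adds the middle acyl chain, had log2 ratios of -0.27 and -0.24 by its 2 probes. The diacylglycerol acyltransferases closed the list without a difference beyond the software's error of 0.20. Dgat1 read 1.07 in both hearts, and Dgat2 had levels of 7.27 in the WRN-K577M heart and 7.31 in the control heart. Of these 6 genes, taken by the brighter probe where there were 2, 1 was at least 2-fold lower. The dimmer probe of Lpin1, whose levels lay further apart, does not enter that count.

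The remaining 9 genes held both the lowest ratio of the list and its highest. Car3, carbonic anhydrase 3, an abundant cytosolic protein of fat and slow muscle, had levels of -1.49 in the WRN-K577M heart and 2.71 in the control heart (-4.20, 18.4-fold lower), which ranked 8 from the lowest of all measured genes. Fabp4, the fatty acid binding protein aP2 of fat cells that capillary endothelium also makes, had levels of 7.59 in the WRN-K577M heart and 7.07 in the control heart (0.53, 1.44-fold higher). Adig, adipogenin, a small protein of the droplet machinery, gave 2 unequal ratios. Its brighter probe read -1.09 in the WRN-K577M heart and 0.075 in the control heart (-1.16), and its dimmer probe -2.69 in the WRN-K577M heart and -2.30 in the control heart (-0.39). Acvr1c, the activin receptor ALK7, which restrains lipolysis in fat cells, read -6.17 in the WRN-K577M heart, not well above background, and -3.57 in the control heart, at least 1.80-fold lower. Aoc3, an amine oxidase of fat cells and smooth muscle, had a log2 ratio of -0.18, and Mrap, the accessory protein of the corticotropin receptor, one of -0.26. Sncg, gamma-synuclein, found in fat and neurons, had levels of 1.77 in the WRN-K577M heart and 1.33 in the control heart (0.44). Nnat, the imprinted gene neuronatin, gave 0.53 with its first probe, and its second was well above background in the control heart only, at -4.52 in the WRN-K577M heart and -4.19 in the control heart. Lgals12, the droplet-bound galectin of fat cells, was not well above background in either heart.

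Genes of the same pathways outside the list had ratios on both sides of 0. Together with receptors of fat hormones and further fat markers, 98 such genes were measured. Of these, 6 were at least 2-fold lower and 5 at least 2-fold higher, with a median log2 ratio of 0.015. The 6 lower ones were all further fat markers, which the next paragraph describes. The shares over all measured genes, 3.46% lower and 1.94% higher, are the background for the counts that follow. In lipolysis and droplet turnover, 0 of 14 were at least 2-fold lower and 1 at least 2-fold higher. That gene, Plin2, the perilipin that coats droplets in most tissues, had levels of 4.64 in the WRN-K577M heart and 3.39 in the control heart (1.25, 2.39-fold higher). Pnpla2, the adipose triglyceride lipase, had levels of 6.65 in the WRN-K577M heart and 5.77 in the control heart (0.88), and Lipe, hormone-sensitive lipase, had levels of 0.20 in the WRN-K577M heart and -0.60 in the control heart (0.80). G0s2, which inhibits adipose triglyceride lipase, had levels of 2.18 in the WRN-K577M heart and 3.14 in the control heart (-0.96). Pnpla2, Lipe and G0s2 lay within 2-fold. Of 11 genes of fatty acid uptake, 0 were at least 2-fold lower and 1 at least 2-fold higher. That gene was Angptl4, which encodes a secreted inhibitor of lipoprotein lipase, with levels of 4.88 in the WRN-K577M heart and 2.81 in the control heart (2.07, 4.20-fold higher). Lpl, lipoprotein lipase itself, had a log2 ratio of 0.34 and the transporter Slc27a1 one of 0.78. Among 22 other transcription factors of fat cell differentiation and their cofactors, 0 were at least 2-fold lower and 1 at least 2-fold higher. Klf5, a factor of early fat cell differentiation, had levels of -3.04 in the WRN-K577M heart and -4.28 in the control heart (1.24, 2.37-fold higher), with both signals near background. Klf4 (-0.76) and Rxrg (-0.72) had the lowest ratios there, and Cebpb, Ebf1 and Ebf3 lay between -0.0035 and 0.024. The 18 measured lipogenic enzymes outside the list ran from -0.63 for the elongase Elovl5 to 0.61 for pyruvate carboxylase, Pcx, with a median of 0.045. The receptors of adiponectin, Adipor1 and Adipor2, had log2 ratios of 0.25 and -0.17, and that of leptin, Lepr, one of -0.29.

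Further marker genes of fat included some with low ratios and some near 0. Of 12 measured brown fat genes, Otop1, a proton channel, had levels of -3.71 in the WRN-K577M heart and -1.80 in the control heart (-1.91), and Slc36a2, an amino acid transporter, 0.56 in the WRN-K577M heart and 1.97 in the control heart (-1.41). The respiratory subunits Cox7a1 (0.045) and Cox8b (0.22), which brown fat and heart muscle both make, and Cpt1b (0.34) lay within 2-fold. Of 17 measured white fat genes, 4 were at least 2-fold lower and 2 at least 2-fold higher, against 3.46% and 1.94% of all measured genes. The 4 lower ones were the peptide hormone Apln (-3.07), Sfrp5, a Wnt antagonist secreted by fat (-2.84), Apoc1, an apolipoprotein (-2.25), and Itih5 (-1.41), and Serpina3c had a ratio of 1.28. These markers were chosen with earlier results of the same arrays known, so their counts support nothing independently.

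**Figure D3:**
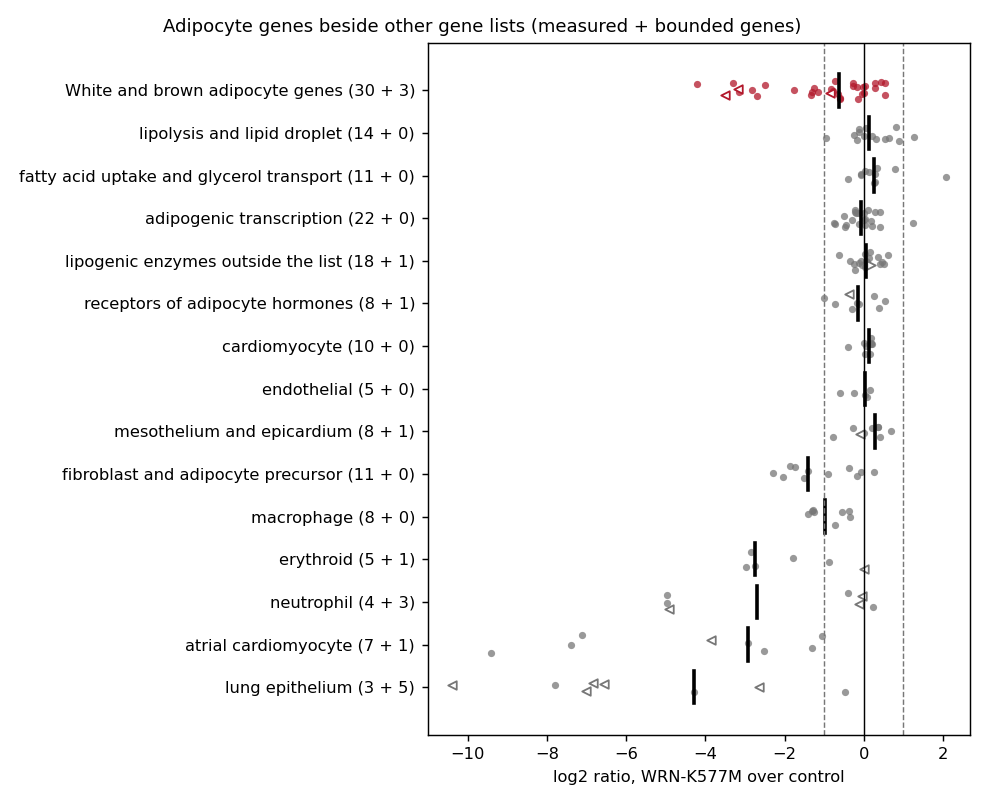
Log2 ratio, WRN-K577M over control, of the 33 adipocyte genes with a ratio or a bound (red) and of the genes of other lists (grey), each point a gene; triangles are bounds, black bars medians of measured genes, dashed lines 2-fold, and the numbers beside a list its measured and bounded genes. The adipocyte genes spread from -4.20 to 0.53, the pathway and cardiomyocyte lists centre near 0, and the lung and atrial lists reach furthest below.

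Markers of several other tissues and cell types were also lower in the WRN-K577M heart. Of 10 lung epithelium markers, 3 were measured, with log2 ratios from -7.78 to -0.47. A further 5 were well above background in the control heart only, with bounds from at least 6.21-fold to at least 1336-fold lower. Scgb3a2 and Cldn18 were not well above background in either heart. The summed linear signal of the lung markers, in units of the array's 75th percentile, was 10.8 in the WRN-K577M heart and 149 in the control heart. Most of the sum in the WRN-K577M heart came from Lamp3, whose log2 ratio was -0.47. All 7 measured atrial markers were at least 2-fold lower, with log2 ratios from -9.41 to -1.06. Fgf12, well above background in the control heart only, was at least 14.6-fold lower. The summed atrial signal was 157 in the WRN-K577M heart and 657 in the control heart. Of 11 measured fibroblast and fat precursor markers, 6 were at least 2-fold lower, with a summed signal of 272 in the WRN-K577M heart and 369 in the control heart. In that list Pdgfra, a receptor of fat cell precursors, had a log2 ratio of -0.18, and Dlk1, preadipocyte factor, was not well above background in either heart. Erythroid markers had a summed signal of 610 in the WRN-K577M heart and 1589 in the control heart. Of 8 neutrophil markers, S100a8 and S100a9 were 31.5-fold lower, Retnlg was at least 29.98-fold lower, and Camp (-0.41) and Elane (0.24) lay within 2-fold. Ltf and Mpo were well above background in the control heart only, with bounds under 2-fold, and Ngp was so in neither heart. The neutrophil list had a summed signal of 3.47 in the WRN-K577M heart and 43.7 in the control heart. All 8 macrophage markers had ratios below 0 and 4 were at least 2-fold lower, with a summed signal of 18.8 in the WRN-K577M heart and 31.0 in the control heart. At least 2-fold different in either direction were 0 of 10 cardiomyocyte markers, 0 of 5 endothelial markers and 0 of 8 measured markers of mesothelium and epicardium. Over all measured genes, 3.46% were at least 2-fold lower and 1.94% at least 2-fold higher, so 0 in lists this short is near that share. The summed cardiomyocyte signal was 4729 in the WRN-K577M heart and 4271 in the control heart. The 4 measured genes for secreted fat proteins had summed signals of 3.22 in the WRN-K577M heart and 19.9 in the control heart. Over all measured and bounded genes of the adipocyte list, the sum was 474 in the WRN-K577M heart and 468 in the control heart. In that sum bright probes such as those of Fabp4 and Dgat2 weigh most. How far the tissue taken with each heart has a part in the adipocyte ratios was not tested.

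The number of lower genes changed little under most processing settings. Several of these leave the ratios as they are or shift all of them alike, so they could hardly change it. Normexp background correction, with an offset of 50 added to every signal, shrank the ratios of dim probes, and 9 of 30 genes were then at least 2-fold lower. Of the 11 genes, 9 were at least 2-fold lower under every setting that measured them and all 11 stayed below 0. Dio2 (-0.73) and Adig (-0.83) were within 2-fold after normexp, and so was Adig (-0.78) with the mean of its probes. After normexp Car3 was 10.7-fold lower, Cidec 4.64-fold, Adipoq 4.49-fold, Pck1 3.37-fold and Retn 2.96-fold, whereas Cfd was 5.77-fold lower. The ratio of Fasn was -0.056 after normexp. Outside the list, Apln (-1.61), Sfrp5 (-1.55) and Apoc1 (-1.28) also shrank after normexp but stayed at least 2-fold lower. Otop1 (-0.58), Itih5 (-0.72), Serpina3c (0.69) and Klf5 (0.47) then lay within 2-fold. Plin2 (1.17) and Angptl4 (1.88) stayed at least 2-fold higher.

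**Figure D4:**
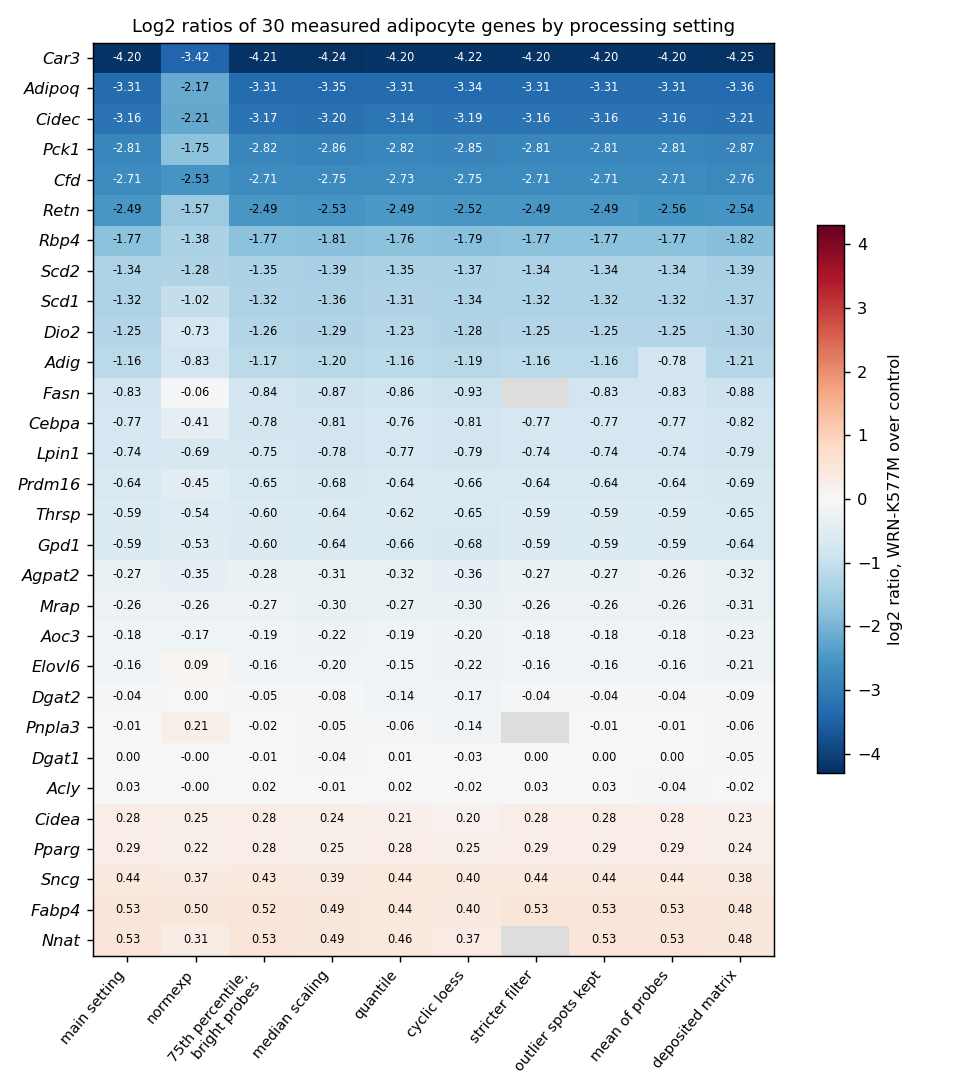
Log2 ratio, WRN-K577M over control, of the 30 measured genes (rows, from lowest to highest ratio) under the main setting (first column) and the other processing settings (columns), with the value printed in each cell and colour from blue (lower) to red (higher); grey cells were removed by the stricter filter. The normexp column is paler for Adipoq, Cidec, Pck1, Retn, Dio2 and Fasn, and the remaining columns differ little from the main setting.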

How the data were processed

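Cy3-labelled heart RNA of 1 WRN-K577M and 1 control sample was put on 1-colour arrays, per the labels. The deposited spot files hold intensity values, per the file headers, made with Agilent Feature Extraction 11.5.1.1, which is also named in the submitters' processing notes. The columns are a processed signal that is background-subtracted, detrended and not scaled between arrays, its error, the median spot and local background signals, and other columns with 0 or 1 flags. The deposited series matrix holds the same processed intensity times 4.86 for the WRN-K577M array and 4.12 for the control array, and the sources used here do not say how those factors were chosen. Its column medians are 79.0 and 79.5, its values are linear and not centred by gene, and it served as an alternative.

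Control spots and 257 spots that were outliers on either array were left out, and 0 spots were saturated. The log2 processed signal minus the log2 of the 75th percentile over non-control spots (210 on the WRN-K577M array, 256 on the control array) is the level, averaged over the spots of each probe. Matching RefSeq accessions without versions to a gene table of assembly GRCm38.p6 named 28330 probes. The array design is annotated on mm9, per the file headers, so that table gave names, and promoter windows carry RefSeq's own coordinates. Each gene is represented by the brightest of its probes with signal well above background on both arrays. A bound sets the level on the control array against the higher of the gene's own level on the WRN-K577M array and the lowest level well above background there. No test between genotypes is possible with 1 array per group, and precision is limited by the number of arrays. The gene list, the other lists and the settings compared were chosen with earlier results of these data known. All members are named, and of the other lists up to 4 genes with the largest absolute ratio, bounds of at least 2-fold, and a few of known role chosen after their values were seen. A gene that this rule names is not reported here. The other settings were normexp, quantile, cyclic loess, scaling by the median or by bright probes, a stricter and no filter on dim probes, the deposited matrix, outlier spots kept, and probes averaged per gene, with counts also made at 1.5-fold and 3-fold. The step that counts genes at 2-fold was run on simulated ratios of 4-fold with only the error between spots. This checks the arithmetic of the count and holds no variation between animals and no loss of dim probes. Calculations used Python 3.11.15, numpy 2.4.6, pandas 2.3.3, matplotlib 3.10.9, R 4.3.3 and limma 3.58.1.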

Additional observations from a re-analysis of the deposited data

How the results depend on the processing

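Of 10 other processing settings, the number of adipocyte genes at least 2-fold lower ran from 9 of 30 after normexp to 14 of 37 with no filter on dim probes, and 0 were at least 2-fold higher under each of them. After normexp the median of the adipocyte genes was -0.43, and 197 of all measured genes were at least 2-fold lower and 115 at least 2-fold higher. This correction adds a constant to every signal, which by construction pulls ratios of dim probes towards 0. With no filter on dim probes 1080 of 21368 genes were lower and 1240 higher, because genes at background then enter the count. At 1.5-fold the counts were 17 adipocyte genes lower, and 1282 of all genes lower and 946 higher. At 3-fold they were 7 adipocyte genes lower, and 154 of all genes lower and 63 higher. Of 297 ratios of single adipocyte genes under these settings, 21 moved by more than the SD between spots, 276 by less, and 0 of those called at 2-fold changed sign. Many of the 276 had no room to move, so their number is no measure of stability. The filters on dim probes and keeping outlier spots left these ratios as they were. Scaling by the median or by bright probes, and the deposited matrix, shifted all of them by the same constant, smaller than that SD. Averaging probes changes only genes with more than 1 probe. With the bounds entered, the median was -0.74 over 33 genes and 13 were at least 2-fold lower. The signal over background limits Plin1, Ucp1 and Acvr1c to bounds, and leaves Lep, Elovl3, Orm1 and Lgals12 without a ratio. No paired analysis was possible because each group has 1 array, and leaving out a replicate was not possible for the same reason. Normexp used the median spot signal, the raw signal given. Normexp, quantile normalization and cyclic loess of pathway genes outside the list were added after seeing the data.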
